A study of Arabidopsis thaliana with 12 samples.

Results

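The 10 Arabidopsis genes described here encode enzymes that inactivate jasmonate: the cytochrome P450 enzymes CYP94B1, CYP94B3 and CYP94C1, the jasmonate oxidases JOX1 to JOX4, the amidohydrolases IAR3 and ILL6, and the sulfotransferase ST2A. They were taken by locus from 24035 genes listed in at least 1 of 12 RNA-seq libraries, and all 10 were listed. A filter on low counts left 18809 genes for testing, 9 of the members among them. JOX1 fell under that filter and is described by its counts. Poly(A) RNA came from whole Arabidopsis thaliana seedlings, 10 days old, grown on upright plates of MS medium, with 3 libraries in each of 4 groups: cost1 dehydrated, WT dehydrated, cost1 control and WT control. The mutant cost1 takes its name from the gene COST1, and the sources used here give neither its allele nor the accession of the wild type. Dehydrated seedlings lay on a petri dish for 6 h. The design addresses how dehydration changes transcript levels in the mutant and in the wild type.

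Jasmonic acid is made from a fatty acid of the chloroplast membrane, and its conjugate with isoleucine, JA-Ile, is the form that the receptor COI1 perceives together with JAZ repressors. Wounding and drought are known to raise it in leaves. Plants end the signal by several routes: CYP94 enzymes oxidise JA-Ile at the end of its side chain, amidohydrolases split off the amino acid, JOX enzymes hydroxylate free jasmonic acid before it can be conjugated, and ST2A puts a sulfate on the hydroxylated acid. Many genes of synthesis, repression and inactivation are themselves known to be jasmonate-responsive.

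Each library held between 12320257 and 13028160 clean reads of 49 bases, and the expected counts of its genes summed to between 5884728 and 6223687. COST1 had 5.33 to 10.9 CPM (counts scaled to library size) in the 6 cost1 libraries, against 25.8 to 32.7 CPM in the 6 WT libraries, and it was lower in cost1 under dehydration (log2 difference -1.48, SE 0.17, adjusted p = 0.01101 by edgeR) and in control (-2.10, SE 0.17, adjusted p = 0.0006833). Replicate 2 of cost1 control stood apart within its group: its log2 CPM correlated with the other libraries there at r = 0.941 and 0.947, while those correlated with each other at 0.981. Dehydrated libraries were about as far apart, with pairs at 0.938 to 0.966 in cost1 and 0.960 to 0.969 in WT. Of the seedling markers, all 5 shoot genes had counts in every library, with summed levels of 7251 to 12189 CPM in cost1 dehydrated and 10503 to 13181 CPM in WT dehydrated, against 11692 to 19513 CPM in cost1 control and 12469 to 15928 CPM in WT control. Of 7 root genes, SCR and SHR carried most of the sum, which was 30.7 to 44.6 CPM in cost1 dehydrated and 35.5 to 47.7 CPM in WT dehydrated, against 58.7 to 70.7 CPM in cost1 control and 54.7 to 66.4 CPM in WT control. The root hair genes COBL9 and EXPA7 and the root meristem genes PLT1 and PLT2 had at most 5 counts in any group. These genes thus give little sign of root tissue, and how much root the libraries held was not tested. WOX5, of the root stem cell niche, had 47 counts in cost1 dehydrated and 94 in WT dehydrated, against 4 in cost1 control and 5 in WT control. The 4 embryo and seed genes summed to 3.70 to 20.8 CPM in cost1 dehydrated and 0.517 to 3.33 CPM in WT dehydrated, against 3.35 to 299.7 CPM in cost1 control and 2.22 to 4.75 CPM in WT control. In cost1 control the sums were 3.35 CPM in replicate 1, 38.5 CPM in replicate 2 and 299.7 CPM in replicate 3. The part of these markers in the results was not tested. In bulk RNA, fewer cells of a type and less RNA per cell cannot be told apart.

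All 9 members that could be tested had more transcript after dehydration, in cost1 and in WT. By edgeR's quasi-likelihood test at an adjusted p under 0.05, 9 of 9 rose in cost1, where 26.4% of all genes tested rose, and 9 of 9 rose in WT, where 24.9% did. The median log2 change over these members was 3.38 in cost1 and 3.85 in WT, beside -0.03 in cost1 and -0.02 in WT over all genes tested. The libraries of the compared groups did not overlap for 8 of 9 members in cost1, against 28.4% of all genes higher without overlap, and for 9 of 9 in WT, against 30.6%. Scaling by library totals alone, without the TMM factors used here, moved the median of all genes by -0.15 in both genotypes and left the members' median at 3.23 in cost1 and 3.70 in WT.

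**Figure D1:**
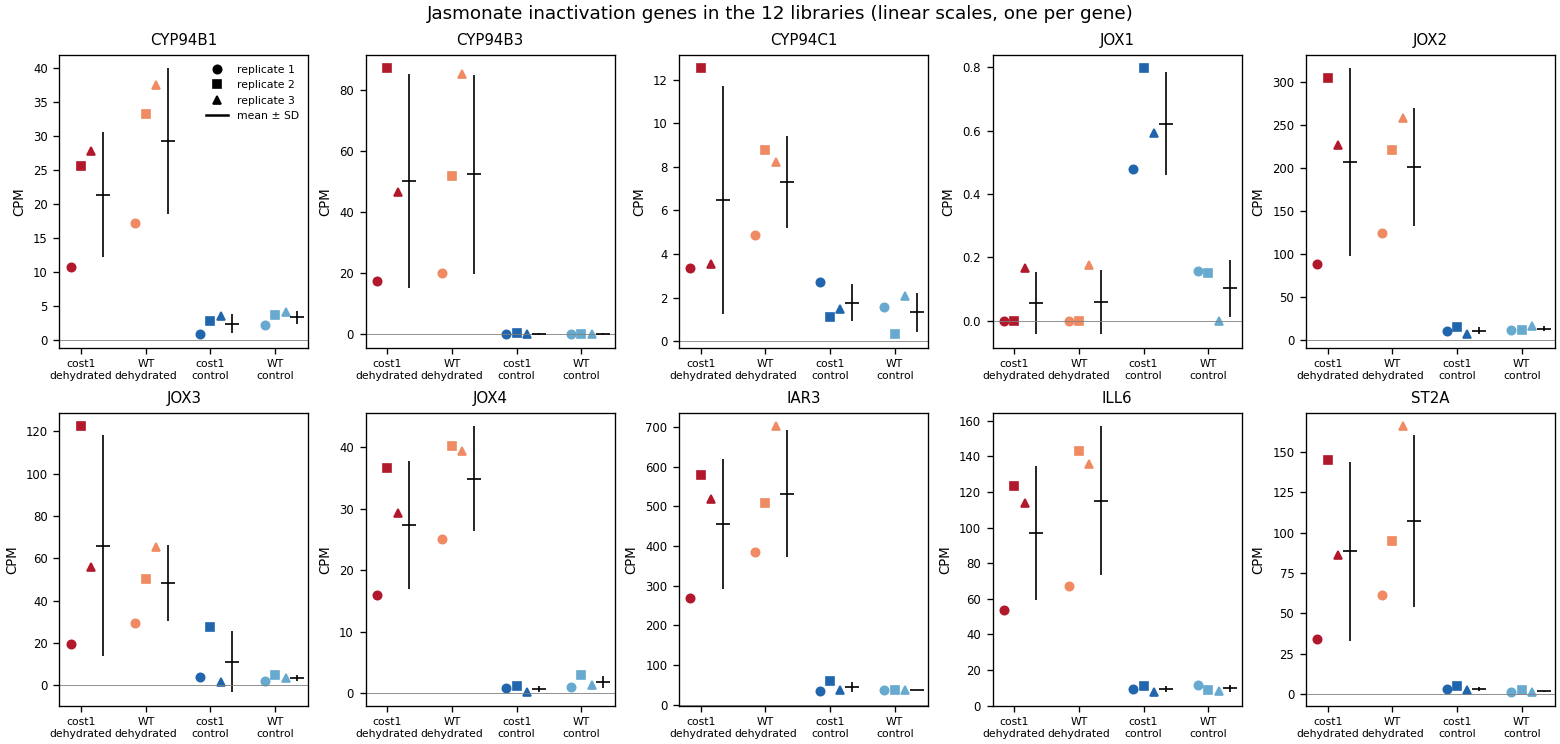
CPM of the 10 members in each library (linear scale, one for each gene), with cost1 dehydrated, WT dehydrated, cost1 control and WT control from left to right; points are libraries, and bars are the mean and SD of 3. In both dehydrated groups replicate 1 was the lowest of the 3 libraries for the 9 members tested, and JOX1 alone had its highest values in cost1 control.

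CYP94B1 and CYP94B3 hydroxylate JA-Ile. CYP94B3 (AT3G48520, chromosome 3, 17974853 to 17976774, minus strand, in the TAIR10.1 annotation) was close to absent in control seedlings and abundant after dehydration. It had 17.3, 87.0 and 46.5 CPM in cost1 dehydrated and 20.04, 51.7 and 85.3 CPM in WT dehydrated, against 0.159, 0.319 and 0.148 CPM in cost1 control and 0, 0.303 and 0.158 CPM in WT control. Every dehydrated library lay far above every control library. The summed counts were 866 in cost1 dehydrated against 4 in cost1 control, a ratio of 239 (95% Poisson interval 93.0 to 879), and 906 in WT dehydrated against 3 in WT control, a ratio of 332.5 (113 to 1615). Such intervals cover counting error only. The fitted log2 changes of CYP94B3 were 7.79 (SE 0.95, adjusted p = 5.426e-05, edgeR) in cost1 and 8.21 (SE 0.99, adjusted p = 5.112e-05) in WT, and with so few control counts they depend on the prior count of the fit.

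CYP94B1 (AT5G63450, chromosome 5, 25408821 to 25410725, minus strand) shares 77.4% of its aligned coding bases with CYP94B3 but was already expressed in control. Its levels were 10.8, 25.6 and 27.8 CPM in cost1 dehydrated and 17.2, 33.2 and 37.5 CPM in WT dehydrated, against 0.797, 2.71 and 3.55 CPM in cost1 control and 2.22, 3.64 and 4.12 CPM in WT control. The dehydrated and control libraries did not overlap in either genotype, and the log2 change was 3.16 (SE 0.49, adjusted p = 0.0003039, edgeR) in cost1 and 3.13 (SE 0.47, adjusted p = 0.0002512) in WT.

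CYP94C1 (AT2G27690, chromosome 2, 11809279 to 11811280, plus strand), which oxidises hydroxylated JA-Ile further to the carboxylic acid, had the smallest change of the 9. It had 3.37, 12.5 and 3.52 CPM in cost1 dehydrated and 4.88, 8.78 and 8.23 CPM in WT dehydrated, against 2.71, 1.11 and 1.48 CPM in cost1 control and 1.58, 0.303 and 2.06 CPM in WT control. In cost1 the lowest dehydrated library was only just above the highest control library. The log2 change was 1.86 (SE 0.61, adjusted p = 0.02453, edgeR) in cost1 and 2.46 (SE 0.64, adjusted p = 0.007951) in WT. Without replicate 2 of cost1 dehydrated the change in cost1 was 0.96 and no longer passed (adjusted p = 0.1836, edgeR). The call was also lost without replicate 2 of cost1 control (1.62, adjusted p = 0.06743) or its replicate 3 (1.74, adjusted p = 0.07592).

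The JOX genes encode oxoglutarate-dependent oxygenases that convert jasmonic acid to its hydroxylated form. Their names JOX1 to JOX4 follow the list that defined the members, since the reference annotation gives a symbol only for JOX3 (JRG21). JOX2 (AT5G05600, chromosome 5, 1672070 to 1674770, plus strand) had the highest mean FPKM, a level per transcript length, of the 4 after dehydration. It had 88.2, 304 and 227 CPM in cost1 dehydrated and 124, 220 and 257 CPM in WT dehydrated, against 10.8, 15.3 and 6.36 CPM in cost1 control and 11.4, 11.1 and 16.2 CPM in WT control. The groups were well separated in both genotypes, with a log2 change of 4.25 (SE 0.48, adjusted p = 2.712e-05, edgeR) in cost1 and 3.96 (SE 0.47, adjusted p = 4.375e-05) in WT.

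JOX4 (AT2G38240, chromosome 2, 16012535 to 16014991, minus strand) was low in control and rose in every dehydrated library. Its levels were 15.99, 36.5 and 29.4 CPM in cost1 dehydrated and 25.1, 40.1 and 39.4 CPM in WT dehydrated, against 0.797, 1.11 and 0.148 CPM in cost1 control and 1.11, 3.03 and 1.43 CPM in WT control. The log2 change of JOX4 was 5.29 (SE 0.51, adjusted p = 9.138e-06, edgeR) in cost1 and 4.21 (SE 0.44, adjusted p = 1.631e-05) in WT.

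JOX3 (AT3G55970, chromosome 3, 20766735 to 20769410, minus strand) was the only member of the 9 whose dehydrated and control libraries overlapped, and only in cost1. It had 19.5, 122 and 56.0 CPM in cost1 dehydrated and 29.5, 50.1 and 65.3 CPM in WT dehydrated, against 4.15, 27.7 and 1.48 CPM in cost1 control and 2.22, 5.002 and 3.49 CPM in WT control. The overlap came from replicate 2 of cost1 control, whose 27.7 CPM lay above replicate 1 of cost1 dehydrated. The log2 change was 2.57 (SE 0.82, adjusted p = 0.01987, edgeR) in cost1 and 3.75 (SE 0.92, adjusted p = 0.006057) in WT. Without that control library the change in cost1 was 4.56 (adjusted p = 0.0006832, edgeR). The call in cost1 was lost without replicate 1 of cost1 control (2.18, adjusted p = 0.07001), its replicate 3 (2.04, adjusted p = 0.05674) or replicate 2 of cost1 dehydrated (1.77, adjusted p = 0.09927), and with only the cost1 groups in the fit (2.58, adjusted p = 0.07554).

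JOX1 (AT3G11180, chromosome 3, 3503917 to 3507113, plus strand) went the other way in cost1, at very low counts. It had 0, 0 and 1 counts in cost1 dehydrated and 0, 0 and 1 in WT dehydrated, against 3, 5 and 4 counts in cost1 control and 1, 1 and 0 in WT control. Only cost1 control was above 1 count in any library. The ratio of cost1 dehydrated to cost1 control was 0.0920 (95% Poisson interval 0.00215 to 0.622), and the counts of 1 and 2 in the WT groups give no usable ratio. With no filter on low counts, edgeR over 24027 genes called JOX1 lower after dehydration in cost1 (log2 change -3.04, adjusted p = 0.04005) but not in WT (-0.66, adjusted p = 0.7583). With the filter JOX1 was not tested. In that fit 24.5% of 18809 genes fell in cost1, and the share without the filter is not given here. JOX1 and JOX2 are the closest pair of the 4, with 80.2% of aligned coding bases identical, and the other pairs share 62.7% to 70.9%. No stretch of 49 bases, the read length, in the transcripts of JOX1 to JOX4 occurs in another gene.

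**Figure D2:**
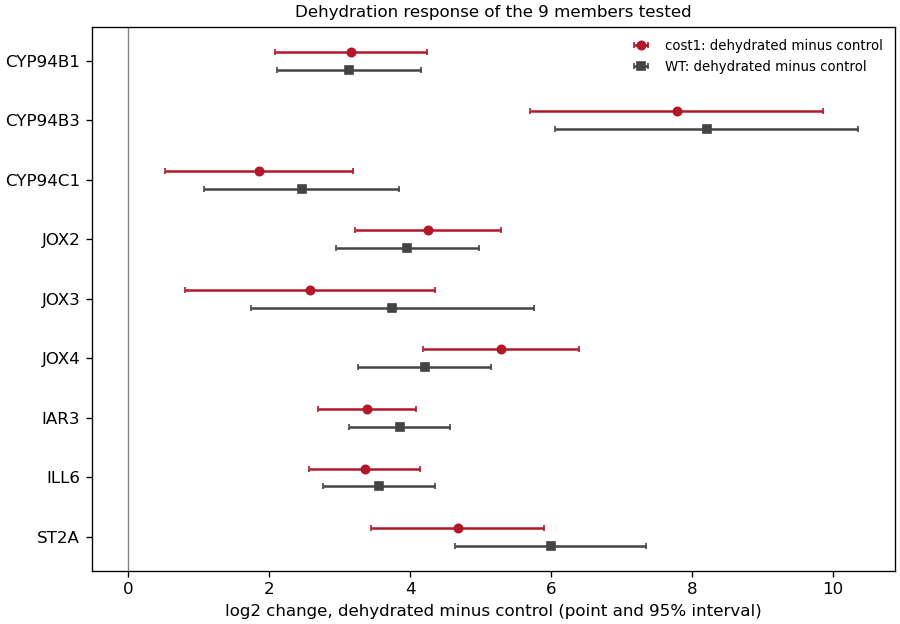
Log2 change, dehydrated minus control, of the 9 members tested, with 95% intervals derived from edgeR's F test, in cost1 (red circles) and WT (grey squares). Every interval lies above 0, from the smallest change, CYP94C1 in cost1 at 1.86, to CYP94B3 in WT at 8.21.

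IAR3 and ILL6 are amidohydrolases that cleave JA-Ile and its hydroxylated form, and IAR3 is also known to release auxin from its alanine conjugate. IAR3 (AT1G51760, chromosome 1, 19199351 to 19201707, plus strand) was the most abundant member per length in all 4 groups. It had 269, 579 and 519 CPM in cost1 dehydrated and 384, 508 and 701 CPM in WT dehydrated, against 34.9, 58.8 and 37.3 CPM in cost1 control and 36.1, 37.0 and 37.2 CPM in WT control. Its coefficient of variation over 3 libraries was 36.1% in cost1 dehydrated and 30.1% in WT dehydrated, against 30.1% in cost1 control and 1.57% in WT control. IAR3 rose by 3.38 on the log2 scale (SE 0.32, adjusted p = 7.827e-06, edgeR) in cost1 and by 3.85 (SE 0.33, adjusted p = 4.081e-06) in WT.

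ILL6 (AT1G44350, chromosome 1, 16834210 to 16838562, minus strand) had 53.9, 123 and 114 CPM in cost1 dehydrated and 67.03, 143 and 136 CPM in WT dehydrated, against 9.25, 11.3 and 7.84 CPM in cost1 control and 11.9, 8.94 and 8.40 CPM in WT control. No dehydrated library was near the control libraries. Its log2 change was 3.36 (SE 0.36, adjusted p = 2.046e-05, edgeR) in cost1 and 3.56 (SE 0.36, adjusted p = 1.431e-05) in WT.

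ST2A (AT5G07010, chromosome 5, 2174668 to 2176446, minus strand), which sulfates hydroxyjasmonate, had the largest change in WT after CYP94B3, and in cost1 the largest after CYP94B3 and JOX4. Its levels were 34.3, 145 and 86.0 CPM in cost1 dehydrated and 61.5, 95.1 and 166 CPM in WT dehydrated, against 3.03, 4.78 and 2.52 CPM in cost1 control and 1.11, 2.27 and 1.58 CPM in WT control. The groups did not overlap in either genotype. The log2 change of ST2A was 4.68 (SE 0.56, adjusted p = 4.758e-05, edgeR) in cost1 and 6.00 (SE 0.62, adjusted p = 1.64e-05) in WT. ST2A shares 91.6% of its aligned coding bases with its neighbour ST2B, and 5 of its 1731 stretches of 49 bases (0.289%) also occur there. ST2A had counts that were not whole in 5 libraries, at most 0.23 from a whole number. Its relative ST2B did not pass the test, at -0.22 (adjusted p = 0.3914, edgeR) in cost1 and -0.41 (adjusted p = 0.1214) in WT.

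The 250 bases before the annotated start are shown for 3 members that differ in their behaviour. JOX1 had 1 count after dehydration in cost1 against 12 in control, CYP94B3 had the largest change and IAR3 was the most abundant. Each is written 5′ to 3′ on the strand of its gene from RefSeq's TAIR10.1 genome, whereas the authors name TAIR10. Transcript lengths agreed for all 13455 genes with a single transcript in both. The window of JOX1 is chr3:3503667-3503916 on the plus strand, that of CYP94B3 is chr3:17976775-17977024 on the minus strand, and that of IAR3 is chr1:19199101-19199350 on the plus strand. Capitals mark any match, on either strand, to the motif CACGTG (the G-box), the motif ACGTG (the core of abscisic acid response elements), the motif CATGTG (a variant of the G-box) or the motif CCGAC (the core that DREB factors bind). The shorter ACGTG lies within the G-box, so their counts overlap.
JOX1: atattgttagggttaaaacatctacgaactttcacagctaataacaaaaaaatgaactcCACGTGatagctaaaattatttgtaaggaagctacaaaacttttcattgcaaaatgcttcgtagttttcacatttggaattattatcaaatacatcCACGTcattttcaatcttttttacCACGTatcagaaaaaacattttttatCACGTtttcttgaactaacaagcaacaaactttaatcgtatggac
CYP94B3: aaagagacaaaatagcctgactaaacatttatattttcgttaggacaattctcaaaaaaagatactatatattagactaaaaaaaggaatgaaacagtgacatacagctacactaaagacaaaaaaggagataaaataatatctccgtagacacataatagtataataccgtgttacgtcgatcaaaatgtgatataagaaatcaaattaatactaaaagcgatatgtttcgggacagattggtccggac
IAR3: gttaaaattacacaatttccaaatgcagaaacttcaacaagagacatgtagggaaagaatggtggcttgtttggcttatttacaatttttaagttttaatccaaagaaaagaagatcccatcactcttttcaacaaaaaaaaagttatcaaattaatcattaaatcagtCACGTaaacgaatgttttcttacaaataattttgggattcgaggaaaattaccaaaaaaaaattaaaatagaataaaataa
JOX1 alone of the 10 members held the G-box, which MYC2 and related factors bind, 191 bases before the start, and 6.49% of 27443 promoters of that length hold it. ACGTG was in 3 of 10 (JOX1, JOX3 and IAR3), against 22.9% of promoters. CATGTG was in 2 of 10 (CYP94C1 and JOX2), against 11.1%, and CCGAC in 1 of 10 (CYP94B1), against 3285 of the 27443 promoters. The window of JOX2, alone of the 10, overlaps another annotated gene, AT5G05598. CYP94B3, with the largest change, held none of the 4 in this window, and such matches describe letters only.

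Per length, in FPKM, IAR3 led in all 4 groups and made up 43.2% of the members' summed mean level in cost1 dehydrated and 45.8% in WT dehydrated, against 50.5% in cost1 control and 50.3% in WT control. JOX2 came second in 3 groups, and its ranges lay below those of IAR3 without overlap in WT dehydrated and in WT control but not in cost1 dehydrated. In cost1 control JOX3 took the second place at 7.62 ± 9.74 FPKM (SD, n = 3), which rested on 18.8 FPKM in replicate 2, and its range overlapped that of JOX2. Further down, CYP94B1 lay above CYP94C1, and CYP94C1 above JOX1, with no overlap in both dehydrated groups, while most other neighbours in the order overlapped. The share of ST2A was 8.49% in cost1 dehydrated and 9.45% in WT dehydrated, against 4.06% in cost1 control and 2.33% in WT control. CYP94B3 made up 4.45% in cost1 dehydrated and 4.25% in WT dehydrated, against 0.228% in cost1 control and 0.206% in WT control.

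**Figure D3:**
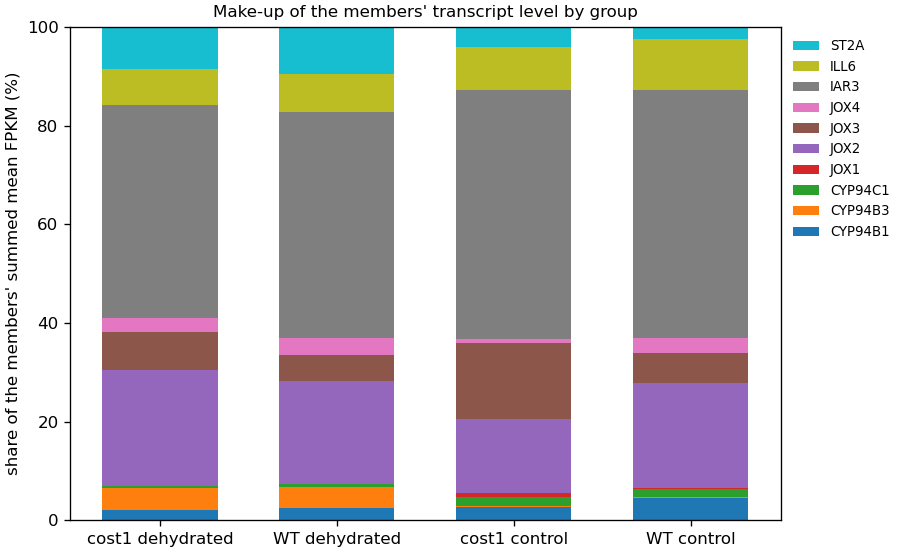
Share of each member in the members' summed mean FPKM (percent, bars to 100) in cost1 dehydrated, WT dehydrated, cost1 control and WT control. IAR3 is the largest share in all 4, and the shares of ST2A and CYP94B3 are larger in both dehydrated groups than in their controls.

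Summed by route, the 3 CYP94 genes reached 38.3 ± 21.6 FPKM in cost1 dehydrated and 43.9 ± 21.4 in WT dehydrated, against 2.39 ± 0.524 in cost1 control and 2.67 ± 0.773 in WT control (SD, n = 3 each). The 4 JOX genes summed to 186 ± 101 FPKM in cost1 dehydrated and 178 ± 56.8 in WT dehydrated, against 15.9 ± 12.6 in cost1 control and 12.8 ± 2.25 in WT control. The JOX sum in cost1 control rested on replicate 2, at 30.1 FPKM beside 11.3 in replicate 1 and 6.23 in replicate 3, and without it the mean was 8.78 FPKM, below that of WT control. The amidohydrolases IAR3 and ILL6 reached 275 ± 95.4 FPKM in cost1 dehydrated and 322 ± 91.2 in WT dehydrated, against 29.4 ± 7.01 in cost1 control and 25.6 ± 0.14 in WT control. Every route was higher after dehydration, and the spread between dehydrated libraries was wide in each.

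The dehydrated libraries differed among themselves in a way the members shared. Replicate 1 was the lowest for 9 of 9 members in cost1 dehydrated and for 9 of 9 in WT dehydrated, and over all genes that rose it was the lowest for 67.4% in cost1 and 48.3% in WT. Replicate 2 was the highest for 8 of 9 in cost1 dehydrated (62.5% of genes that rose), and replicate 3 for 6 of 9 in WT dehydrated (47.9%). The members' summed level was 512, 1435 and 1109 CPM in cost1 dehydrated and 734, 1150 and 1496 CPM in WT dehydrated, against 67.1, 124 and 61.4 CPM in cost1 control and 67.8, 71.7 and 74.6 CPM in WT control. The embryo and seed markers summed to 3.70, 20.8 and 13.8 CPM in cost1 dehydrated, in the same order of libraries as the members, and to 2.02, 0.517 and 3.33 CPM in WT dehydrated, in another order, and their part in the members' levels was not tested. As a description with no test, log2 CPM of the 36 pairs of members correlated at a median r of 0.94 over 12 libraries, which are separated by treatment. Within the 6 dehydrated libraries the median was 0.91, and within the 6 control libraries it was 0.15, where CYP94C1 and JOX4 gave -0.54 and JOX3 and IAR3 gave 0.88.

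**Figure D4:**
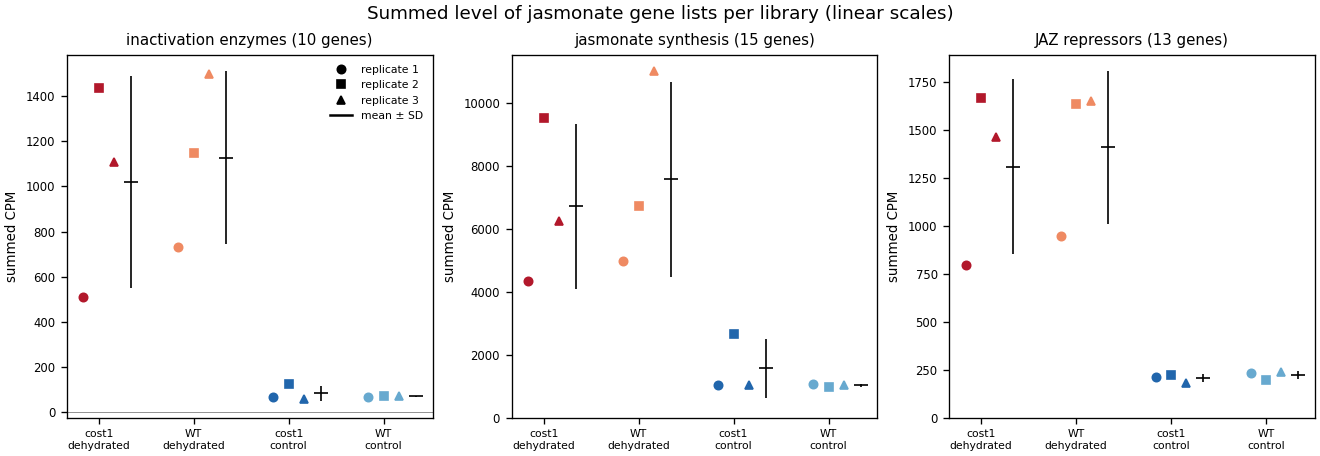
Summed CPM of the 10 inactivation genes, the 15 synthesis genes and the 13 JAZ genes in each library (linear scales), with mean and SD, from cost1 dehydrated at the left to WT control at the right. Replicate 1 is the lowest dehydrated library in each panel and genotype, and replicate 2 of cost1 control has the highest control sum for the inactivation and synthesis genes.

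No member was called different between cost1 and WT in either condition. edgeR called 0 of 9 under dehydration, where 0.0372% of all genes were called, and 0 of 9 in control, where 0.0213% were, with 0 members at an unadjusted p under 0.05 and 0 called by DESeq2 in both. Under dehydration the median log2 difference of the members, cost1 minus WT, was -0.22, with 7 of 9 below 0, and in control it was 0.25, with 5 above 0. Neither sign held with each library left out in turn. The median under dehydration was 0.10 without replicate 1 of cost1 dehydrated and 0.03 without replicate 3 of WT dehydrated. In control it was -0.19, with 2 of 9 above 0, without replicate 2 of cost1 control, -0.01 without its replicate 1 and -0.04 without replicate 2 of WT control. IAR3 differed by -0.22 under dehydration (95% interval -0.85 to 0.41, adjusted p = 0.86) and by 0.25 in control (-0.41 to 0.90, adjusted p = 0.9647). Without replicate 2 of cost1 control the difference of IAR3 in control was -0.028, and under dehydration it was 0.046 without replicate 1 of cost1 dehydrated and 0.030 without replicate 3 of WT dehydrated. JOX2 differed by 0.04 under dehydration (-0.84 to 0.91) and by -0.25 in control (-1.27 to 0.76). Under dehydration the intervals for IAR3, ILL6 and JOX2 stayed within a log2 difference of 1 in either direction, and those of the other 6 did not.

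In control, 3 members had differences larger than the others. JOX4 differed by -1.44 (95% interval -2.91 to 0.03, unadjusted p = 0.05393, adjusted p = 0.9647, edgeR) and its groups overlapped. ST2A differed by 1.03 (-0.59 to 2.66, adjusted p = 0.9647), and its cost1 libraries all lay above its WT libraries, as those of 7.77% of all genes did. JOX3 differed by 1.62 (-0.48 to 3.72, adjusted p = 0.9647), and without replicate 2 of cost1 control by -0.36. JOX1, with 12 counts in cost1 control and 2 in WT control, gave a ratio of 5.97 (95% Poisson interval 1.33 to 54.95), its libraries did not overlap, and with no filter edgeR gave an adjusted p of 0.9664.

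The response itself was compared between genotypes as the interaction, the change in cost1 minus that in WT. edgeR called 0 of 9 members and 0.00% of all genes, with 0 members and 690 genes at an unadjusted p under 0.05, and DESeq2 called 0 members and 1 gene. The values were -1.32 for ST2A (95% interval -3.20 to 0.57), -1.17 for JOX3 (-3.82 to 1.48) and 1.09 for JOX4 (-0.56 to 2.73), and they lay between -0.61 and 0.29 for the other 6. These intervals are wide, so the responses were not shown to be alike. Without replicate 2 of cost1 control JOX3 gave 0.81 and JOX4 gave 1.61.

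**Figure D5:**
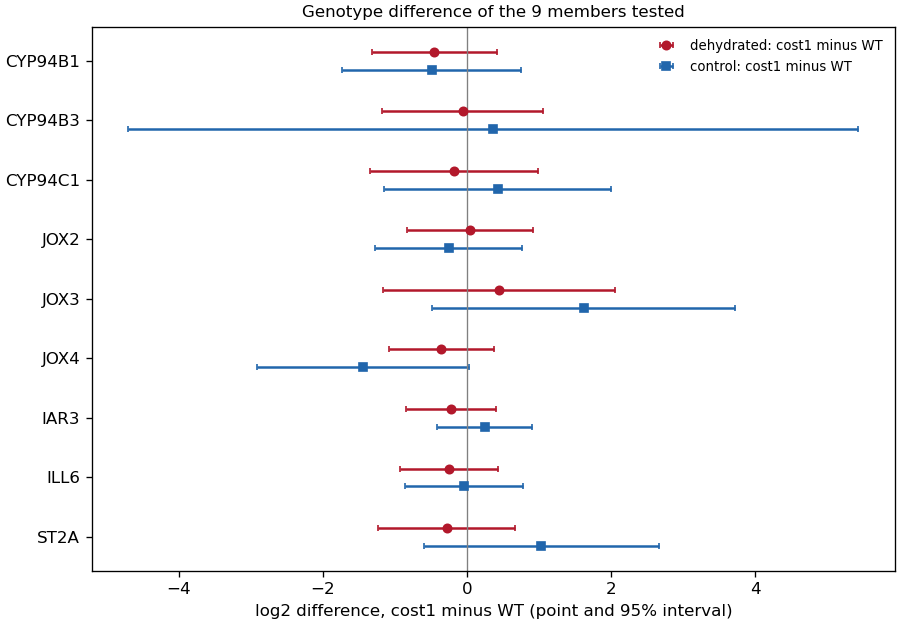
Log2 difference, cost1 minus WT, of the 9 members tested, with 95% intervals derived from edgeR's F test, under dehydration (red circles) and in control (blue squares). Every interval includes 0, and CYP94B3 in control, with 4 counts in cost1 and 3 in WT, has the widest. The 95% Poisson interval for the ratio of those counts was 0.225 to 9.06, on a linear scale.

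Other genes of the pathway were read from lists chosen with earlier results of these data known. Of 15 genes of jasmonate synthesis 14 were tested, of which 12 rose and 1 fell in cost1 and 11 rose and 1 fell in WT. Among all genes tested, 26.4% rose and 24.5% fell in cost1, and 24.9% rose and 20.6% fell in WT. The median log2 change of the synthesis genes was 2.22 in cost1 and 3.27 in WT. AOC1, an allene oxide cyclase that forms the ring of the hormone, rose by 3.52 on the log2 scale in cost1 and by 4.13 in WT, and AOC3, another cyclase, by 5.88 in cost1 and 6.53 in WT. OPR3, the reductase of the next step, rose by 2.58 in cost1 and by 3.28 in WT. The synthesis genes summed to 4349, 9533 and 6255 CPM in cost1 dehydrated and 4992, 6714 and 11000.4 CPM in WT dehydrated, against 1030, 2652 and 1041 CPM in cost1 control and 1060, 985 and 1041 CPM in WT control. Replicate 2 held the highest sum of cost1 control, and its part in the lower median change of cost1 was not tested.

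Of 13 JAZ genes, which repress the jasmonate response, 10 were tested and 9 rose in each genotype, with none falling and medians of 2.21 in cost1 and 2.32 in WT. Beside these counts and those below, 26.4% of all genes rose and 24.5% fell in cost1, and 24.9% rose and 20.6% fell in WT. JAZ1 rose by 5.33 in cost1 and 5.17 in WT, JAZ5 by 4.03 in cost1 and 5.03 in WT, and JAZ12 by 2.16 in cost1 and 2.09 in WT. The receptor, factors and targets were more mixed: of 10 tested, 6 rose and 1 fell in each genotype, with medians of 0.46 in cost1 and 0.68 in WT. MYC2, the main transcription factor of the response, rose by 2.26 in cost1 and 2.73 in WT, and JAM1, a related factor that represses jasmonate responses, by 2.09 in cost1 and 2.15 in WT. VSP2, a vegetative storage protein gene induced by jasmonate, rose by 3.56 in cost1 and 5.70 in WT. Its control libraries ranged from 15.8 to 254 CPM in cost1 and from 19.2 to 31.2 CPM in WT. All named changes had edgeR adjusted p values between 1.712e-06 and 0.006137. None of these genes was called in the genotype comparisons or the interaction.

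Genes most like each member were found by the Pearson correlation of log2 CPM over the 12 libraries among all genes tested, which describes likeness and carries no statement on function. NET1D was nearest to both CYP94B3 (r = 0.996) and IAR3 (0.998), RHD2 to ST2A (0.994), AT3G11770 to CYP94B1 (0.982), AT5G13370 to JOX2 (0.996) and AT2G28570 to JOX4 (0.984). JOX3 was nearest to AT3G24180 (0.987), ILL6 to AT3G55410 (0.997) and CYP94C1 to AT4G17350 (0.951), the lowest of the 9. The libraries are separated by treatment, and by Spearman correlation or within 6 libraries of 1 treatment another gene was nearest in every one of 27 cases.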

How the data were processed

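Poly(A) RNA of seedlings was sequenced in 12 libraries, 3 per group, and the 10 members were picked by locus. Per the file headers, the authors deposited for each library an expected count per gene, an estimate of its reads before scaling, and an FPKM value, scaled by them to transcript length and depth. The submitters' processing notes list STAR 2.4.0, HTSeq 0.6.0, DESeq2 and the build TAIR10, with no role for any of them. Of the listed expected counts, 8.57% lay over 0.005 from a whole number. Unlisted genes were read as 0. The expected counts summed to 45.8% to 47.8% of the clean reads.

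The rounded counts went into edgeR 4.0.16 (R 4.3.3), with filterByExpr, TMM scaling and quasi-likelihood F tests in 1 fit of 12 libraries, which had a coefficient per group and left 8 residual degrees of freedom. Benjamini-Hochberg adjustment ran over 18809 genes in each of 5 comparisons, and genes were called under 0.05. Standard errors came from the F statistic. CPM is at TMM scaling, and levels between genes were compared only in FPKM. Genes named from pathway lists were up to 3 per list with the smallest p in the WT response. Of the members' relatives, ST2B, CYP94D2 and ILL1 were named outside this rule. Correlations used log2 CPM with a prior count of 1. The tests were tried on simulated data. No source says that replicates came from separate cultures, so the p-values reflect only the spread of these samples, possibly technical.

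The members and lists were chosen with earlier results of these data known. There were 20 alternatives: 12 leave out 1 library, and the other 8 were library totals, DESeq2 1.42.0, no filter, unrounded counts, only the groups compared, the replicate block, and limma 3.58.1 on log2(FPKM + 0.1) and log2(FPKM + 1). In the cost1 response, deviations of same-numbered libraries from their group means correlated at 0.17, 0.375 and 0.159 for numbers 1, 2 and 3. Dehydrated and control libraries with numbers 1 and 3 crossed correlated at 0.137 and 0.155. Deviations from a group mean cancel out over the group, so a match of number 2 also raises the values among numbers 1 and 3. These values therefore cannot show that numbers 1 and 3 pair. The labels state no pairing, and the main fit paired no libraries. Coordinates, promoters and coding sequences are from RefSeq's TAIR10.1 assembly and annotation. 49-base stretches were searched across its transcripts. No member overlaps another annotated gene. Protein sequences were not used here.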

Additional observations from a re-analysis of the deposited data

How the results depend on the processing

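Of 889 results on single members, 844 kept their direction and their side of the threshold, 8 kept the direction but no longer passed, and 37 changed sign. The 37 were all in the genotype comparisons and the interaction, and 0 of them involved a call. All 360 values of the dehydration responses were above 0. The 8 lost calls were CYP94C1 and JOX3 in cost1. For CYP94C1, limma on log2(FPKM + 0.1) gave 1.43 (adjusted p = 0.06805). The number of members that rose in cost1 was between 7 and 9, and in WT it was 9 throughout. With no filter 1 member, JOX1, was lower in cost1, and with the filter 24.5% of all genes tested were lower there. With 1 library left out, the difference in control, cost1 minus WT, ranged from -0.15 to 1.19 for CYP94B3, -0.044 to 0.90 for CYP94C1, -0.59 to 0.021 for JOX2, -0.36 to 2.15 for JOX3, -0.028 to 0.38 for IAR3 and -0.19 to 0.12 for ILL6. Under dehydration it ranged from -0.71 to 0.49 for CYP94B3, -1.08 to 0.13 for CYP94C1, -0.84 to 0.17 for ST2A, -0.35 to 0.40 for JOX2, -0.35 to 0.88 for JOX3, -0.43 to 0.046 for IAR3 and -0.52 to 0.043 for ILL6. The interaction ranged from -0.37 to 0.46 for CYP94B1, -1.25 to 0.12 for CYP94B3, -0.10 to 0.65 for JOX2, -1.97 to 0.81 for JOX3 and -0.48 to 0.086 for ILL6. JOX2 under dehydration was -0.083 by limma on log2(FPKM + 0.1), -0.081 on log2(FPKM + 1) and -0.031 with the replicate block, and the interaction of CYP94B1 was -0.10 by limma on log2(FPKM + 1). Counts over all genes in the genotype comparisons were small and moved. In control the genes higher in cost1 numbered 3, against 13 by DESeq2, 1 with only the groups compared, 0 with the replicate block and 0 to 4 with 1 library left out, and those lower numbered 1, or 1 to 3 with 1 library left out. Under dehydration the higher ones numbered 6, against 23 by DESeq2, 10 by limma on log2(FPKM + 1), 0 with only the groups compared, 1 with the replicate block and 0 to 7 with 1 library left out. The lower ones there numbered 1, against 6 by DESeq2, 0 with only the groups compared and 0 to 3 with 1 library left out. DESeq2 called 1 gene lower in the interaction. The cause was not tested. The replicate block changed no member's call. It was fitted to both genotypes together, so it also tied cost1 and WT libraries of the same number. A block within cost1 alone was not tested. Same-numbered libraries correlated at 0.0106 to 0.034 in the WT response. Between genotypes they correlated at -0.142 to 0.0321 in control and -0.169 to 0.374 under dehydration. The main fit did not take them as pairs either. Under dehydration the 0.374 was for number 1, and number 3 of cost1 with number 2 of WT gave 0.371. In the WT response each library correlated best with its own number, but only at 0.0106 to 0.034, too weak to show pairing. Fewer than 5 control counts limit CYP94B3, and 12 or fewer counts per group limit JOX1.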

Other observations

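Close relatives of the inactivation enzymes and JMT, which methylates jasmonic acid, changed in both directions. Of 10 such genes 8 were tested, of which 3 rose and 1 fell in cost1 and 3 rose and 2 fell in WT, with median log2 changes of -0.18 and -0.06. Over all genes tested, 26.4% rose and 24.5% fell in cost1, and 24.9% rose and 20.6% fell in WT. With only 8 genes, these counts are not set apart from those shares. ILL5 shares 87.8% of its aligned coding bases with IAR3. No stretch of 49 bases of IAR3 occurs in another gene. IAR3 had counts that were not whole in 5 libraries, at most 0.04 from a whole number. Whether reads of IAR3 were counted for ILL5 was not tested. ILL5 had 214 counts in cost1 dehydrated against 2 in cost1 control, a ratio of 118 (95% Poisson interval 32.3 to 982). In WT it had 280 dehydrated counts against 2 in control, a ratio of 154 (42.3 to 1279). Such intervals cover counting error only, and ILL5 ranged from 1.18 to 29.0 CPM in cost1 dehydrated and from 2.69 to 34.8 CPM in WT dehydrated. The fitted log2 change of ILL5 was 6.66 (SE 1.64, adjusted p = 0.005505, edgeR) in cost1 and 7.03 (SE 1.61, adjusted p = 0.003968) in WT. ILR1, another amidohydrolase, rose by 2.37 in cost1 (SE 0.41, adjusted p = 0.0006332, edgeR) and by 2.29 in WT (SE 0.42, adjusted p = 0.0009541). JMT rose by 2.46 in cost1 (SE 0.72, adjusted p = 0.01355, edgeR), where its groups overlapped, and by 3.59 in WT (SE 0.89, adjusted p = 0.006162). The P450 gene CYP94D2 fell by 0.71 in cost1 (adjusted p = 0.002961, edgeR) and by 0.61 in WT (adjusted p = 0.008368). ILL1 fell in WT (-0.42, adjusted p = 0.03649, edgeR) and gave -0.30 in cost1 (adjusted p = 0.1054), and a difference between the genotypes was not called for it in the interaction (adjusted p = 0.9993).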
